A study of Oryza sativa with 24 samples.

Results

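The LOG family of rice genes, which encodes enzymes that activate cytokinin, was described across roots and leaves treated with trans-zeatin (tZ) or with solvent. The members were all genes whose name or synonym in the reference gene table is LOG or LOGL with a number, or OsIPT with a number. The reference table held 10 such genes, LOG, LOGL1 and LOGL3 to LOGL10. Of these, 8 were among the 17905 genes represented on the array, by 10 of the 57194 rice probe sets analysed: LOG and LOGL7 by 2 probe sets each, and LOGL1, LOGL3, LOGL5, LOGL6, LOGL9 and LOGL10 by 1 each. LOGL4 and LOGL8 had no probe set assigned to them and were not analysed here. The OsIPT pattern matched 0 genes, so the family that makes the precursor was not analysed here. Where a gene had 2 probe sets, the brighter stands for it, and the other is reported separately.

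Cytokinins are plant hormones derived from adenine that act on cell division, shoot and root growth and leaf senescence. Isopentenyltransferases (IPT) attach the side chain to an adenine nucleotide, and the product, a cytokinin nucleotide, is inactive. LOG enzymes are phosphoribohydrolases that cut the ribose phosphate from this nucleotide and release the active free base directly. The founding gene, LOG, was named after the rice mutant lonely guy, whose floral and shoot meristems stop early, and the LOG-like (LOGL) genes encode related enzymes. tZ, the compound applied here, is such a free base, the product of the reaction these enzymes carry out.

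Total RNA of 24 samples was hybridised to a 1-colour rice genome array, in 8 groups of 3. The plants were 2-week-old seedlings of the cultivar Nipponbare, not otherwise modified. Whole roots or the third leaf were cut off and dipped, for 30 or for 120 min and at a temperature of 30 °C, in a solution with 0.1% DMSO, the solvent, or in one that also held 5 µM tZ. All groups therefore share excision, immersion and DMSO, and there was no uncut or untreated organ among them. The labels do not say whether the 3 replicates of a group came from separate cultures. The p-values then rest on the spread between these samples alone, which may be technical. Signals are in the linear units deposited, and differences are of log2(signal + 20), which understates changes of dim genes. A probe set was tested in an organ where its mean lay above the 40th percentile, and was called at a limma p-value below 0.05 after Benjamini-Hochberg adjustment over all probe sets tested. The 8 genes were tested in both organs, and of the 10 probe sets, 9 passed in root and 10 in leaf. A level is compared only within a probe set, since the signals of different probe sets have no common scale.

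The labels had faults that touch the results. A tissue field names root for all 24 samples, while titles and protocols give leaf for 12. The marker genes followed the titles: OsCASP1, a Casparian strip gene of the root endodermis, read 2019 to 2666 in the 12 root arrays and at most 27.1 in the 12 leaf arrays, and the photosynthesis genes LFNR1, OsrbcS and OsrcaA1 were high in leaf. The treatment labels were less clear. Type-A response regulators are early cytokinin-induced genes, and in each organ all 5 that were tested had all 3 DMSO 120 min arrays above all 3 of tZ 30 min. The sixth measured, OsRR5, was too dim to be tested and is not counted. For OsRR6, the root arrays labelled tZ 30 min read 4851 to 5284 and those labelled DMSO 120 min read 17130 to 17763. In the leaf, OsRR9 read 934.0 to 1023 under the tZ 30 min label and 11877 to 13366 under DMSO 120 min. All arrays labelled tZ 120 min lay above all labelled DMSO 30 min for the same 5 genes in each organ. Between tZ 30 min and DMSO 30 min the genes were split: OsRR4 (1.86 on the log2 scale), OsRR6 (1.05) and OsRR2 (0.42) were called higher in root and OsRR9 lower (-0.59), and in leaf OsRR6 was called higher (0.82) and OsRR1 (-1.30) and OsRR9 (-1.63) lower. Between tZ 120 min and DMSO 120 min, 2 of the 5 were called higher and 1 lower in root, where 11.4% of all probe sets were called higher and 18.9% lower. In leaf at 120 min, 4 of the 5 were called higher and 0 lower, where 22% were called higher and 21.4% lower. The cytokinin dehydrogenase gene OsCKX11, from the enzymes that break cytokinin down, ran with the labels by its brighter of 2 probe sets. That probe set was higher under the tZ label at each time in both organs, at mean signals of 6918 against 1416 and 7575 against 2267 in root and 2018 against 339.7 and 2301 against 358.3 in leaf. The other was dim, at means of 71.9 against 57.5 and 92.4 against 71.7 in root and 37.1 against 33.2 and 21.1 against 22.5 in leaf. Its tZ and DMSO arrays overlapped each time. Values of OsCKX11 below are of the brighter one. Whether the labels tZ 30 min and DMSO 120 min were exchanged was not tested. If they were, the comparisons below of tZ with DMSO at one time would be comparisons of time, and those of 120 with 30 min under one label would be comparisons of treatment. Groups below go by the names on their labels, and each tZ result that uses the 2 doubtful groups is given beside tZ 120 min against DMSO 30 min, which uses neither but joins treatment and time.

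The 8 genes fell into 2 patterns by organ. LOG, LOGL3, LOGL5, LOGL7, LOGL9 and LOGL10 had their highest group mean in a leaf group labelled DMSO, and LOGL1 and LOGL6 in a root group. LOG read 7794.7, 7398.8 and 7429.8 in leaf labelled DMSO 30 min and 885.1, 832.6 and 885.1 in root labelled tZ 30 min, its highest and lowest groups. LOGL1 read 3088.5, 2992.6 and 2861.1 in root labelled DMSO 120 min, its highest group, and 280.6, 338.8 and 301.3 in leaf labelled DMSO 30 min, its lowest. The highest and the lowest group of each of the 8 genes were the same after quantile normalization and after shifting arrays to the same median.

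**Figure D1:**
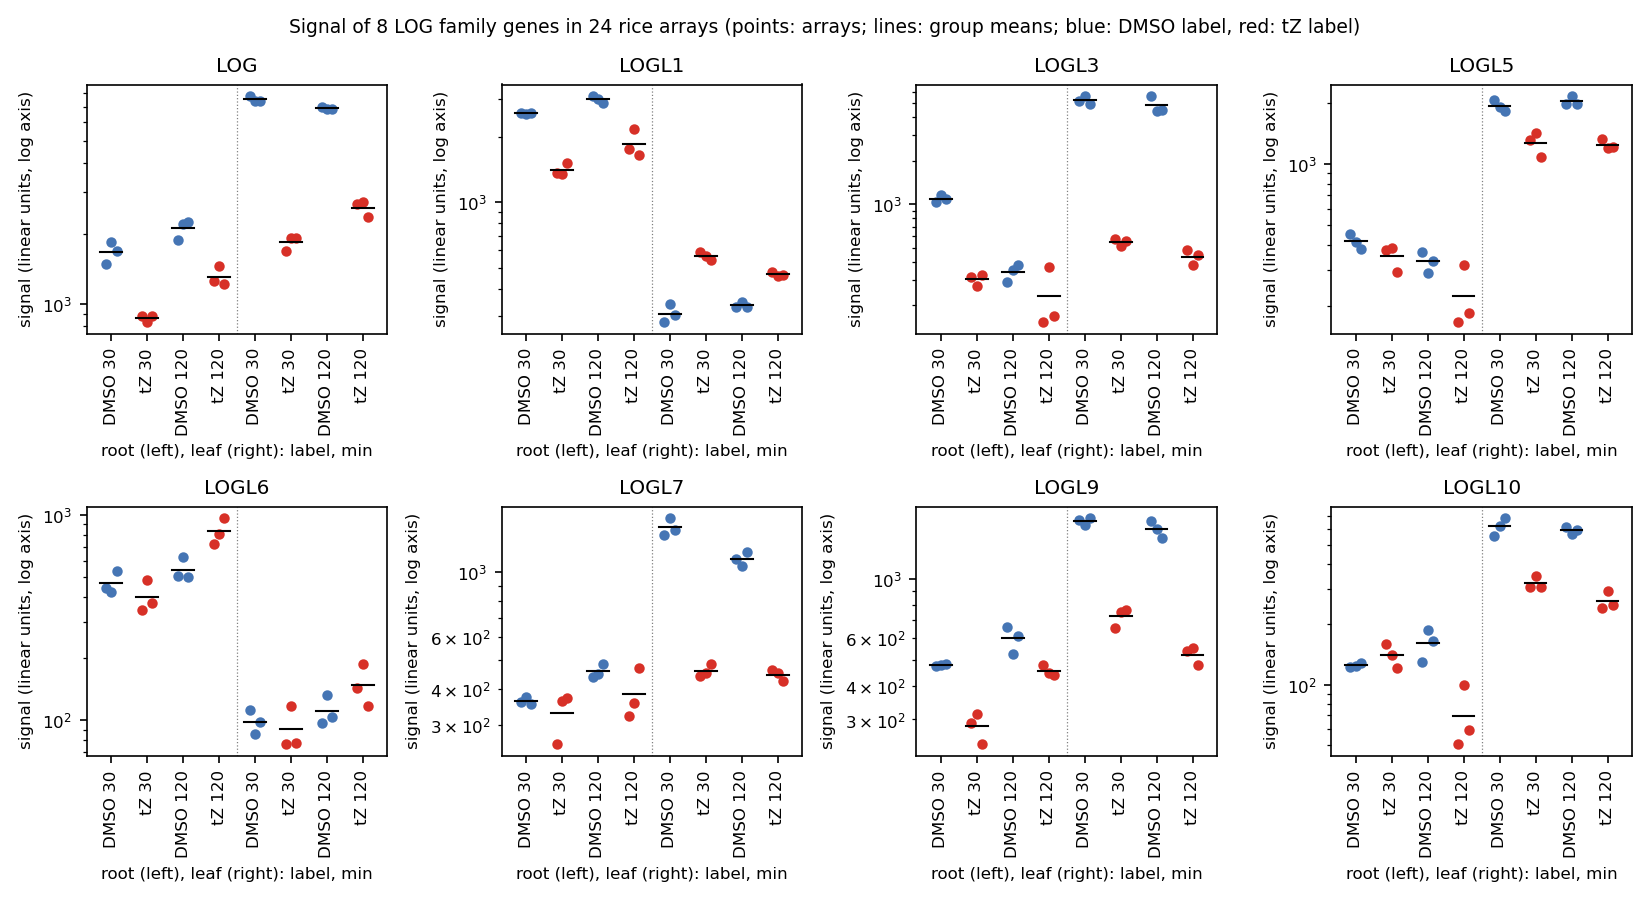
Signal (linear units on a log axis) of the 8 genes in each of the 24 arrays, 1 panel a gene, with root groups on the left and leaf groups on the right. Points are arrays and lines are means of 3; blue is the DMSO label and red the tZ label. LOGL1 and LOGL6 are the panels in which the root groups are the higher ones.

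In the leaf, 6 of the 8 genes were called lower under the tZ label and LOGL1 was called higher, at both times and for tZ 120 min against DMSO 30 min. Over all 34316 probe sets tested, 23.7% were called higher and 21.8% lower at 30 min, 22% and 21.4% at 120 min, and 23.4% and 22.2% for tZ 120 min against DMSO 30 min. The largest drop was that of LOGL3. It read 5192.9, 5639.8 and 4929.9 in leaf labelled DMSO 30 min and 573.5, 510.8 and 554.9 under tZ 30 min, then 5611.0, 4415.2 and 4487.4 under DMSO 120 min and 478.1, 377.2 and 445.3 under tZ 120 min. The DMSO and tZ arrays did not overlap, and the mean was 9.62-fold lower under tZ at 30 min and 11.2-fold lower at 120 min. On the log2 scale the differences were -3.22 (SE 0.0979, adjusted p = 1.50e-13) and -3.42 (SE 0.0979, adjusted p = 1.00e-13). Between tZ 120 min and DMSO 30 min, the groups whose labels are not in doubt, LOGL3 differed by -3.54 (adjusted p = 5.51e-14), a 12.1-fold lower mean.

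LOG had the next largest drop in leaf at 30 min, while LOGL9 at 120 min, and LOGL7 and LOGL9 for tZ 120 min against DMSO 30 min, dropped more than LOG did. The arrays labelled DMSO read 7398.8 to 7794.7 at 30 min and 6813.4 to 7006.1 at 120 min, and those labelled tZ read 1687.1, 1907.0 and 1914.6 at 30 min and 2681.6, 2724.6 and 2346.4 at 120 min. All 6 DMSO arrays lay above all 6 tZ arrays. The log2 differences were -2.03 (SE 0.0636, adjusted p = 2.08e-13) at 30 min, -1.41 (adjusted p = 2.10e-11) at 120 min and -1.54 (adjusted p = 5.92e-12) for tZ 120 min against DMSO 30 min, which are 4.11-fold, 2.66-fold and 2.92-fold lower means. For LOG the 30 and 120 min differences were themselves unequal, by 0.62 (SE 0.0899, adjusted p = 5.16e-04), and it was the only member for which that test was passed in leaf. Over all tested probe sets 2.03% were called higher and 1.8% lower in that test of 2 differences.

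LOGL7 and LOGL9 followed LOG in direction. LOGL7 read 1342.7, 1534.2 and 1400.9 in leaf labelled DMSO 30 min and 441.7, 451.5 and 485.1 under tZ 30 min, and 1052.5 to 1175.4 against 423.5 to 463.3 at 120 min. LOGL9 read 1657.3, 1581.2 and 1679.8 against 656.3, 753.1 and 762.5 at 30 min, and 1411.8 to 1638.8 against 478.3 to 551.5 at 120 min. In neither gene did the 2 labels overlap. LOGL7 differed by -1.59 and -1.28 at 30 and 120 min and by -1.63 for tZ 120 min against DMSO 30 min, and LOGL9 by -1.16, -1.51 and -1.61, each with an adjusted p of 4.35e-09 or less. For LOGL9 the later time had the lower tZ arrays, unlike LOG, and its level fell by 0.45 from tZ 30 min to tZ 120 min (adjusted p = 0.0017).

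LOGL5 and LOGL10 fell less. LOGL5 read 1815.3 to 2054.6 under DMSO 30 min and 1081.1 to 1419.4 under tZ 30 min, with 1962.0 to 2162.1 and 1193.9 to 1331.6 at 120 min. Its differences were -0.60 at 30 min, -0.70 at 120 min and -0.62 for tZ 120 min against DMSO 30 min. LOGL10 read 556.2 to 682.4 under DMSO 30 min and 307.6 to 350.5 under tZ 30 min, with 565.5 to 614.9 and 240.5 to 295.6 at 120 min. Its differences were -0.90, -1.12 and -1.19. The 2 labels did not overlap in either gene, and the adjusted p-values were 2.41e-05 or less.

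LOGL1 went the other way in leaf. It read 280.6, 338.8 and 301.3 under DMSO 30 min, 588.7, 566.4 and 541.4 under tZ 30 min, 329.9, 346.7 and 329.2 under DMSO 120 min and 475.2, 456.7 and 463.7 under tZ 120 min. Every tZ array lay above every DMSO array. The differences were 0.84 (SE 0.0935, adjusted p = 1.07e-06), 0.45 (adjusted p = 7.91e-04) and 0.57 (adjusted p = 7.45e-05) in the same order. Its probe set carries the manufacturer's x suffix, which marks that some probes may match other transcripts. LOGL6 passed none of these 3 tests: it was dim in leaf, at 76.2 to 187.1 over the 12 arrays, and its differences were -0.12, 0.35 and 0.50, the last with an adjusted p of 0.0679.

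The median leaf difference of the 8 genes was -1.03, -1.20 and -1.36 against a median over all probe sets of 0.03, 0.03 and 0.02. The 120 min comparison shares its tZ arrays, and the 30 min comparison its DMSO arrays, with the last, so the 3 sets of calls are not separate evidence. The fermentation gene Adh2 (alcohol dehydrogenase) moved with the tZ label too, at 10142 to 13260 in the 6 leaf arrays labelled tZ and 73.9 to 100.3 in the 6 labelled DMSO, and its part in these results was not tested. The photosynthesis gene OsrbcS, at 16951 to 21197 under DMSO and 6877 to 12156 under tZ, also moved with the label, and in bulk tissue fewer cells of a type and less RNA per cell cannot be told apart.

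**Figure D2:**
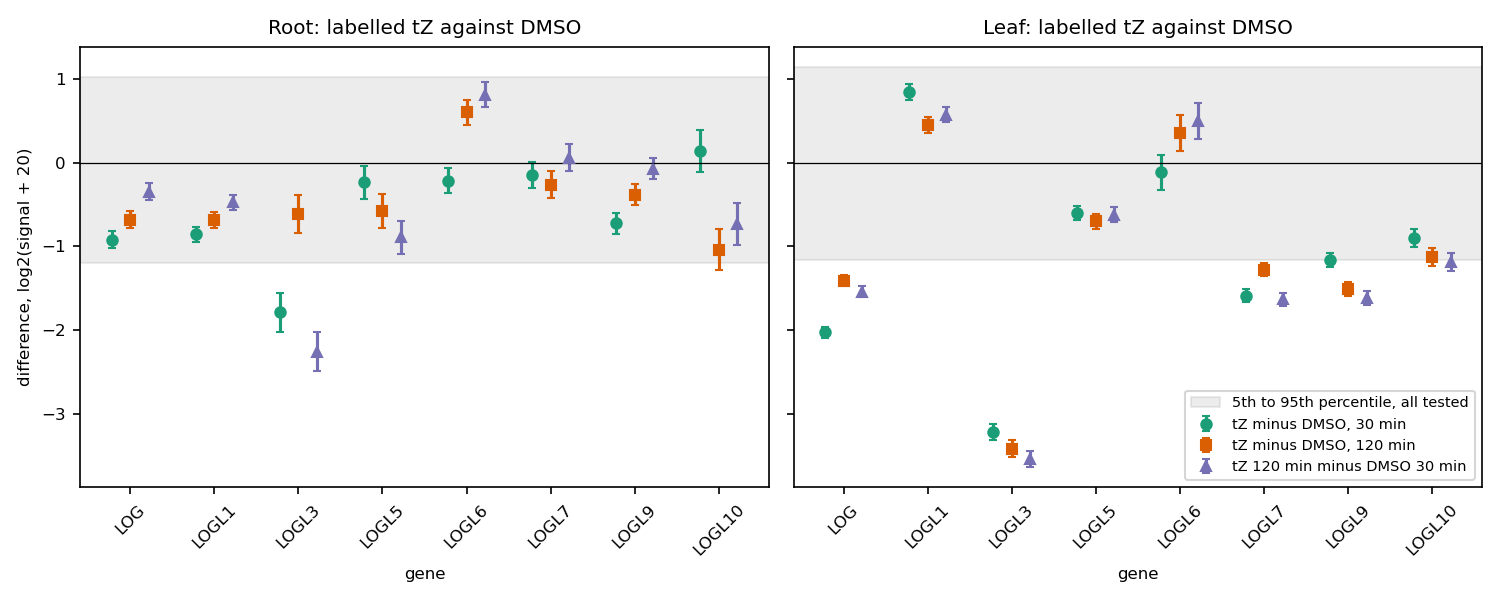
Difference in log2(signal + 20) of each of the 8 genes for tZ minus DMSO at 30 min, at 120 min and for tZ 120 min minus DMSO 30 min, in root and in leaf. Bars are standard errors of the limma fit and the grey band spans the lowest 5th to the highest 95th percentile of all tested probe sets over the 3 comparisons. In leaf, LOG, LOGL3 and LOGL7 lie below the band in all 3 comparisons; in root, LOGL3 does so at 30 min and for tZ 120 min minus DMSO 30 min.

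In the root, fewer members moved and LOGL1 fell with LOG. At 30 min, 4 of the 8 were called lower under the tZ label (LOG, LOGL1, LOGL3 and LOGL9) and 0 higher, where 13.9% of probe sets were called higher and 19.9% lower. At 120 min, 5 were called lower (LOG, LOGL1, LOGL5, LOGL9 and LOGL10) and LOGL6 higher, against 11.4% higher and 18.9% lower. For tZ 120 min against DMSO 30 min, LOG, LOGL1, LOGL3, LOGL5 and LOGL10 were lower and LOGL6 higher, against 11.7% higher and 17.7% lower. LOGL7 was called in none of the 3. The median difference of the 8 genes was -0.48, -0.60 and -0.41 against -0.04, -0.10 and -0.06 over all probe sets. Shifting all arrays to the same median raised the share of calls that were higher at 120 min from 37.7% to 54.0%.

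LOG read 1474.3, 1840.9 and 1688.8 in root labelled DMSO 30 min, 885.1, 832.6 and 885.1 under tZ 30 min, 1874.8, 2193.2 and 2248.9 under DMSO 120 min and 1250.2, 1448.8 and 1210.7 under tZ 120 min. LOGL1 read 2583.6, 2552.1 and 2581.6, then 1368.6, 1352.2 and 1522.8, then 3088.5, 2992.6 and 2861.1, then 1749.0, 2174.4 and 1655.2 in the same 4 groups. In both genes the 6 tZ arrays lay below the 6 DMSO arrays. The differences of LOG were -0.92 (SE 0.101, adjusted p = 2.48e-06) at 30 min, -0.68 (adjusted p = 7.99e-05) at 120 min and -0.35 (adjusted p = 0.015) for tZ 120 min against DMSO 30 min. Those of LOGL1 were -0.86 (adjusted p = 1.90e-06), -0.68 (adjusted p = 3.04e-05) and -0.47 (adjusted p = 8.29e-04). The last call of LOG was lost without DMSO 30 min replicate 2 (adjusted p = 0.0857) and without tZ 120 min replicate 1 (0.0577) or 3 (0.0712).

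**Figure D3:**
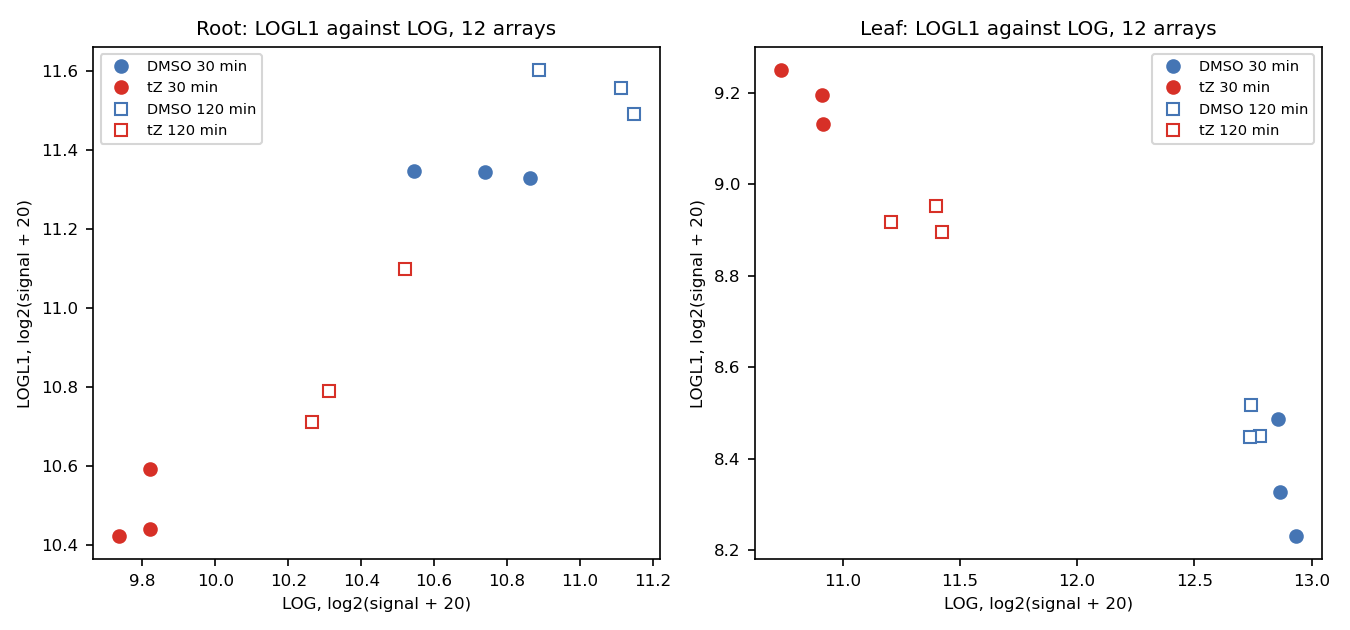
LOGL1 against LOG, both as log2(signal + 20), in the 12 root arrays and the 12 leaf arrays. Blue is the DMSO label and red the tZ label, filled at 30 min and open at 120 min. In root the tZ arrays are lower on both axes; in leaf they are lower for LOG and higher for LOGL1.

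LOGL3 in root was high in 1 group only. It read 1035.3, 1149.8 and 1090.9 under DMSO 30 min, and 311.6, 270.3 and 324.5 under tZ 30 min, 286.7, 350.1 and 377.3 under DMSO 120 min and 152.0, 369.2 and 167.4 under tZ 120 min. The other 3 groups overlap one another and lie below DMSO 30 min. The differences were -1.79 (SE 0.231, adjusted p = 1.38e-05) for tZ against DMSO at 30 min, -1.64 (adjusted p = 4.63e-04) for DMSO 120 against 30 min, and -2.26 (adjusted p = 2.24e-06) for tZ 120 min against DMSO 30 min. At 120 min tZ against DMSO gave -0.62 with an adjusted p of 0.0558, and without tZ 120 min replicate 2, which read 369.2, it gave -0.99 (adjusted p = 5.73e-05). The difference between the 30 and 120 min values, 1.17, had an adjusted p of 0.0526. It passed under both rescalings of the arrays, with a pseudocount of 80 and without any 1 of the tZ 120 min arrays.

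The same replicate of root tZ 120 min was also the highest of its group for LOG, LOGL1, LOGL5 and LOGL10. It was not the highest for LOGL6, LOGL7 and LOGL9. LOGL5 read 166.3, 317.5 and 185.1 there against 451.3, 412.3 and 383.3 under DMSO 30 min, and LOGL10 read 50.1, 99.3 and 59.1 against 122.9, 123.6 and 127.8. Over all tested probe sets, that array's mean correlation with its group mates was 0.9668, the lowest in root. Those of the other root arrays were 0.9674 to 0.9766. Its median signal, 68.2, was also the lowest in root. LOGL5 differed by -0.89 (adjusted p = 0.00269) and LOGL10 by -0.73 (adjusted p = 0.0349) for tZ 120 min against DMSO 30 min. That call of LOGL10 was lost without 5 of the 6 arrays compared. It was also lost under both rescalings of the arrays and with no filter (adjusted p of 0.0516 to 0.0889). At 120 min LOGL5 differed by -0.58 (adjusted p = 0.0383) and LOGL10 by -1.04 (adjusted p = 0.00415), with arrays of LOGL5 that overlapped.

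LOGL9 in root was lower under tZ at both times and had similar means in tZ 120 min and DMSO 30 min. It read 474.3, 479.4 and 482.2 under DMSO 30 min, 292.1, 315.5 and 242.3 under tZ 30 min, 664.3, 524.7 and 611.1 under DMSO 120 min and 477.8, 444.8 and 440.5 under tZ 120 min. The differences were -0.72 (adjusted p = 2.67e-04) at 30 min, -0.38 (adjusted p = 0.031) at 120 min and -0.07 (adjusted p = 0.733) for tZ 120 min against DMSO 30 min. The 120 min calls of LOGL9 and LOGL5 were lost under both rescalings of the arrays and, for each gene, without any of 4 single arrays of that comparison (adjusted p of 0.0641 to 0.123 for LOGL9 and 0.0879 to 0.175 for LOGL5).

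LOGL6 was the only member called higher under the tZ label in root. It read 442.4, 419.8 and 534.4 under DMSO 30 min, 345.5, 480.8 and 371.5 under tZ 30 min, 504.3, 622.3 and 497.0 under DMSO 120 min and 725.1, 810.1 and 967.2 under tZ 120 min. All 3 arrays of the last group lay above the other 9. The difference was 0.60 (SE 0.15, adjusted p = 0.00586) at 120 min and 0.81 (adjusted p = 5.86e-04) for tZ 120 min against DMSO 30 min, and -0.22 (adjusted p = 0.305) at 30 min. The test of 120 against 30 min gave 0.82 (adjusted p = 0.0391), where 2.6% of probe sets were called higher and 2% lower; that call was lost without 8 of the 12 root arrays, left out singly (adjusted p of 0.0558 to 0.0931). LOGL7 read 257.6 to 487.1 over the 12 root arrays, with differences of -0.15, -0.26 and 0.06. In root the pyruvate decarboxylase gene PDC1 read 12794 to 23470 in the 6 arrays labelled tZ and 83.7 to 183.1 in the 6 labelled DMSO, and its part in the root results was not tested.

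Between 30 and 120 min under one label, few members were called in leaf. Under DMSO in leaf, LOGL7 was called lower (-0.35, adjusted p = 0.0367) and no other member was called, where 0.708% of probe sets were called higher and 0.694% lower; this call was lost in all 6 fits that left out 1 of the arrays compared. Under tZ in leaf, LOG was higher at 120 than at 30 min by 0.49 (SE 0.0636, adjusted p = 8.28e-05) and LOGL9 was lower, where 3.8% were called higher and 4.21% lower. LOGL6, at 76.2, 117.2 and 77.2 under tZ 30 min and 143.0, 187.1 and 117.0 under tZ 120 min, differed by 0.62 with an adjusted p of 0.0995.

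In root under the DMSO label, LOGL3 was the only member called between the times, where 3.24% of probe sets were called higher and 2.98% lower. LOG differed by 0.33 there with an adjusted p of 0.0651. Under the tZ label in root, 4 members were higher at 120 than at 30 min and 1 was lower, where 3.65% were called higher and 3.09% lower. The higher ones were LOGL6 (1.03, SE 0.15, adjusted p = 5.24e-04), LOGL9 (0.65, adjusted p = 0.00484), LOG (0.57, adjusted p = 0.00244) and LOGL1 (0.38, adjusted p = 0.0193), and the lower one was LOGL10 (-0.87, adjusted p = 0.0458). The call of LOGL10 was lost under 5 other settings and without 5 of the 6 arrays compared, and that of LOGL1 without tZ 30 min replicate 1 or 2. LOGL6 had a higher mean at tZ 120 min than at tZ 30 min in both organs, 2.09-fold in root and 1.65-fold in leaf, and passed the test in root only; the difference between organs was not tested for this comparison.

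Between the organs at the same label, all 8 genes differed in 3 of the 4 comparisons. Under DMSO 30 min, 6 were higher in leaf and LOGL1 and LOGL6 lower, where 26.1% of the 38131 probe sets tested in at least 1 organ were called higher and 34% lower. The 6 differences ran from 1.73 (LOGL9) to 2.24 (LOGL3), and LOGL1 and LOGL6 differed by -2.99 and -2.04. Mean signals were 4.52-fold higher in leaf for LOG, 4.81-fold for LOGL3 and 4.63-fold for LOGL5, and 8.38-fold higher in root for LOGL1 and 4.74-fold for LOGL6. Under DMSO 120 min the same 6 and 2 were called, where 26.5% were called higher and 35% lower, and LOGL3 had the widest gap, 3.76, a 14.3-fold higher mean in leaf.

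Under the tZ label the gaps of several members were narrower. Under tZ 30 min, 6 were again higher in leaf and 2 lower, where 30.1% were called higher and 32.5% lower, with 1.06 for LOG, 0.82 for LOGL3, 0.47 for LOGL7 and -1.29 for LOGL1. Under tZ 120 min, 4 were higher (LOG, LOGL3, LOGL5 and LOGL10) and 2 lower, where 29.5% were called higher and 31.4% lower. LOGL7 and LOGL9 were not called there, at 0.22 and 0.19. LOGL6 kept a gap between -1.93 and -2.35 in the 4 comparisons, and LOGL5 one between 1.79 and 2.55. The median over all probe sets of leaf minus root was -0.07 to -0.19, and shifting all arrays to the same median moved it to between 0.24 and 0.32. The shift raised the share of calls that were higher in leaf from 43.4% to 62.5% under DMSO 30 min, from 48.0% to 65.0% under tZ 30 min, from 43.1% to 66.1% under DMSO 120 min and from 48.5% to 63.6% under tZ 120 min. Relative to the median of all probe sets, which that shift leaves as it is, LOG stood at 2.33, 1.17, 1.90 and 1.05 and LOGL1 at -2.83, -1.19, -2.88 and -1.87, in the order DMSO 30, tZ 30, DMSO 120 and tZ 120 min. After the shift LOGL7 and LOGL9 were called under tZ 120 min, at 0.56 and 0.53, and no member changed direction between the organs under any alternative.

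**Figure D4:**
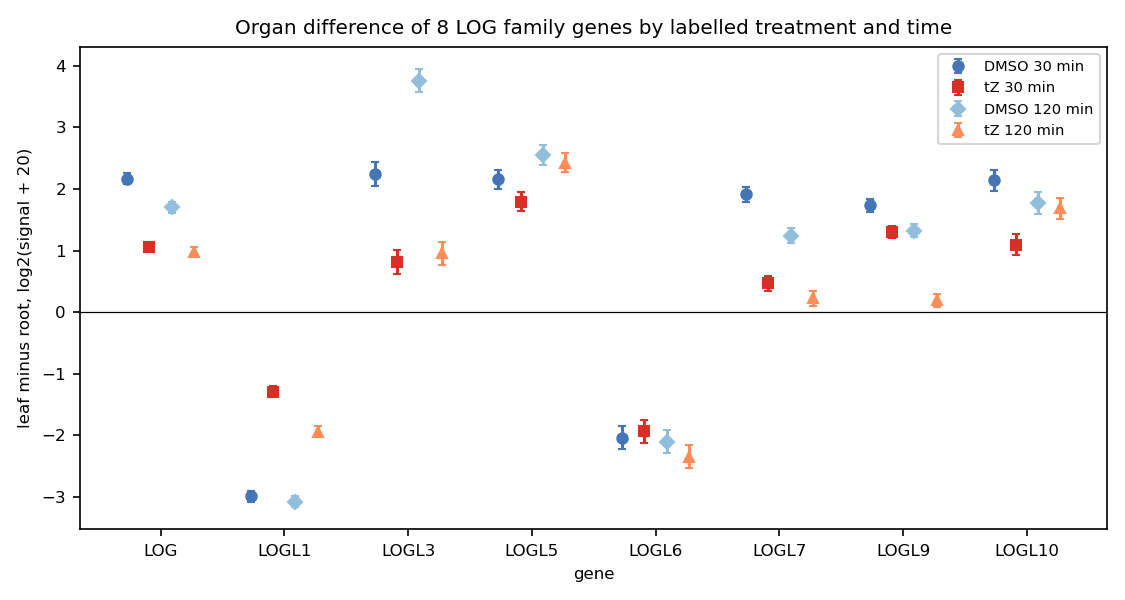
Leaf minus root difference in log2(signal + 20) of the 8 genes in the 4 labelled treatments, with standard errors of the limma fit over 24 arrays. Values above 0 are higher in leaf. LOGL1 and LOGL6 lie below 0 in all 4. The gaps of all genes but LOGL6 are narrower under tZ than under DMSO at the same time. For LOGL5 at both times and LOGL10 at 120 min the narrowing was not called.

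Whether the tZ label went with a different change in leaf than in root was tested as a difference of differences. The values are for the brighter probe sets. At 30 min, LOG (-1.11, SE 0.120, adjusted p = 7.13e-08), LOGL3 (-1.43, adjusted p = 1.51e-04), LOGL7 (-1.45, adjusted p = 4.31e-07), LOGL9 (-0.44, adjusted p = 0.0224) and LOGL10 (-1.04, adjusted p = 0.00166) changed lower in leaf than in root, and LOGL1 higher (1.70, SE 0.125, adjusted p = 8.51e-11). Over all probe sets 18.1% were called higher and 13.2% lower. The call of LOGL9 was lost without leaf tZ 30 min replicate 1 or root tZ 30 min replicate 2. At 120 min the values were -0.73 for LOG, -2.80 for LOGL3, -1.02 for LOGL7, -1.13 for LOGL9 and 1.13 for LOGL1, all called, where 17.3% were called higher and 13.4% lower, and the shift to the same median lowered the share of calls that were higher from 56.4% to 40.6%. With the groups whose labels are not in doubt, tZ 120 min against DMSO 30 min, the values were -1.19 (adjusted p = 2.25e-08) for LOG, -1.29 (adjusted p = 5.09e-04) for LOGL3, -1.69 (adjusted p = 3.70e-08) for LOGL7, -1.54 (adjusted p = 5.93e-09) for LOGL9 and 1.05 (adjusted p = 3.03e-07) for LOGL1, where 16.8% were called higher and 12.9% lower. LOGL5 and LOGL6 were called in none of the 3, with LOGL5 at -0.37, -0.12 and 0.27 and LOGL6 at 0.10, -0.25 and -0.31. LOGL1 was thus the member whose labelled tZ response had opposite directions in the 2 organs, lower in root and higher in leaf, each called on its own in all 3 comparisons.

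The order of the 8 group levels differed between members by organ, in the 2 patterns given above, and in where the tZ groups fell. For LOG the 2 leaf DMSO groups came first, at 7541 ± 220.2 and 6882 ± 108.0 (SD, n = 3), then leaf tZ 120 min at 2584 ± 207.1, root DMSO 120 min at 2106 ± 201.8, leaf tZ 30 min at 1836 ± 129 and root DMSO 30 min at 1668 ± 184, then root tZ 120 min at 1303 ± 128 and root tZ 30 min at 867.6 ± 30.3. Root DMSO 120 min overlapped leaf tZ 30 min, and leaf tZ 30 min overlapped root DMSO 30 min. No other neighbours in that order overlapped. The leaf LOG signal under tZ 30 min thus lay within the range of root LOG under DMSO. For LOGL1 the 4 root groups came before the 4 leaf groups with no overlap between neighbours except the last 2, leaf DMSO 120 and 30 min, at 335.3 ± 9.91 and 306.9 ± 29.5.

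For LOGL3, root DMSO 30 min at 1092 ± 57.3 lay above both leaf tZ groups, at 546.4 ± 32.2 and 433.5 ± 51.5, without overlap. For LOGL7, 6 of the 8 groups formed a run from 459.4 ± 22.8 to 330.2 ± 63.1 in which every neighbour overlapped, below leaf DMSO 30 min at 1426 ± 98.2 and leaf DMSO 120 min at 1113 ± 61.5. For LOGL5 and LOGL10 all 4 leaf groups lay above all 4 root groups. For LOGL6 all 4 root groups lay above the leaf groups, and the 4 leaf groups overlapped in turn.

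The second probe sets were dim. They gave the same directions in leaf, but neither bore out all calls of the brighter one between the organs. The second LOG probe set read 95.8, 81.6 and 72.3 in leaf labelled DMSO 30 min, 3.5, 22.3 and 18.6 under tZ 30 min, 77.3, 70.9 and 67.8 under DMSO 120 min and 30.1, 24.7 and 23.4 under tZ 120 min. The differences were -1.61 (adjusted p = 1.80e-04), -0.999 (adjusted p = 0.00906) and, for tZ 120 min against DMSO 30 min, -1.16 (adjusted p = 0.00297). It did not pass the filter in root. Its leaf minus root gap was 0.89, 0.27, 0.73 and -0.03 under DMSO 30, tZ 30, DMSO 120 and tZ 120 min. None of these was called (adjusted p of 0.0623 or more), where the brighter probe set had 2.17, 1.06, 1.70 and 0.98. Its leaf minus root differences of responses were -0.62, -0.76 and, for tZ 120 min against DMSO 30 min, -0.92. These were not called either (adjusted p of 0.263 or more), against -1.11, -0.73 and -1.19 for the brighter one. The second LOGL7 probe set read 104.8, 127.0 and 106.3 under DMSO 30 min and 60.6, 50.9 and 34.8 under tZ 120 min in leaf, a difference of -0.96 (adjusted p = 8.67e-04). At 30 min it differed by -0.37 (adjusted p = 0.162) and at 120 min by -0.76 (adjusted p = 0.00574), where the brighter LOGL7 probe set had -1.59 and -1.28. In root its 3 differences were not called. Its leaf minus root gap was 0.76 under DMSO 30 min and 0.98 under tZ 30 min, both called, and 0.13 under DMSO 120 min and -0.47 under tZ 120 min, neither called, where the brighter probe set had 1.92, 0.47, 1.24 and 0.22. The leaf minus root difference of responses was 0.22 (adjusted p = 0.753) at 30 min and -0.60 (adjusted p = 0.315) at 120 min, against -1.45 and -1.02 for the brighter one, and -1.23 (adjusted p = 0.027) for tZ 120 min against DMSO 30 min, against -1.69.

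Other genes of cytokinin turnover and signalling give the setting of these values. Cytokinin dehydrogenases (CKX) break the free bases down, histidine kinase receptors bind them, phosphotransfer proteins carry the signal, type-B response regulators are its transcription factors and type-A regulators are induced by it and damp it. For tZ 120 min against DMSO 30 min in leaf, 23.4% of all probe sets tested were called higher and 22.2% lower. There, 3 of 3 dehydrogenases and 5 of 5 type-A regulators tested were higher, and 3 of 4 type-B regulators were lower. Of the 3 receptors, 1 was higher and 2 were lower. Of the 3 phosphotransfer proteins, PHP5 was lower and OsAHP1 and OsAHP2 were not called. The lists go by gene name, and whether PHP5 carries the signal was not tested. In root, the shares over all probe sets were 11.7% higher and 17.7% lower. There, 4 of 5 dehydrogenases and 5 of 5 type-A regulators were higher. Of the 4 type-B regulators 1 was higher and 1 lower, as were 1 and 1 of the 3 receptors, and 0 of 3 phosphotransfer proteins were called. In lists this short, counts of 1 cannot be told from these shares. OsCKX11 was 6.77-fold higher in leaf (adjusted p = 4.81e-13) and 5.35-fold higher in root (adjusted p = 6.42e-12), and OsCKX4 was 4.65-fold higher in leaf (adjusted p = 2.50e-12) and 2.43-fold higher in root (adjusted p = 1.47e-04).

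The dehydrogenases did not all follow the tZ label at 30 min. In root at 30 min, 1 of 5 dehydrogenases was called higher and 2 lower, where 13.9% of all probe sets were called higher and 19.9% lower. In leaf at 30 min, 1 of 3 was called higher and 2 lower, where 23.7% were called higher and 21.8% lower. Between 30 and 120 min under the DMSO label in root, 4 of 5 were called higher and 0 lower, where 3.24% of all probe sets were called higher and 2.98% lower. OsCKX4 had a mean of 162.6 in root labelled DMSO 30 min, 98.1 under tZ 30 min, 915.7 under DMSO 120 min and 394.8 under tZ 120 min, so that its highest root group carried the DMSO label, unlike that of OsCKX11, whose values are given above with the labels.

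Among the 2932 probe sets of named single genes, those whose log2 signal ran most like each member's are given as a description. The correlations are across arrays that fall into 8 groups, so they reflect the steps between groups. Over the 24 arrays, LOG ran most like IAA10 (Pearson r = 0.969), OsSAPK2 (0.961) and OsAGO4a (0.959), LOGL1 like OsPDIL2-3 (0.989), OsKO5 (0.988) and CRO1 (0.987), and LOGL3 like OsNPR3 (0.966), OsYSL13 (0.963) and JMJ706 (0.954). OsNPR3 was also among the 3 nearest of LOGL7, through another of its probe sets (0.946). Os4bglu16 was among the 3 nearest of both LOGL7 (0.944) and LOGL9 (0.970), again through different probe sets. LOGL5 ran most like OsNYC1 (0.987) and OsPSY1 (0.985), LOGL6 like PSK2 (0.973) and OsNrx1-2 (0.966), and LOGL10 like AARE2 (0.974) and DXR (0.959).

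Within an organ other genes came first. Over the 12 leaf arrays, LOG ran most like OsrbohB (0.998) and OsJAZ10 (0.997) and LOGL3 like OsABF2 (0.998) and OsMGD3 (0.997). LOGL6 in leaf had OsTUB6 (0.836) and the type-A regulator OsRR1 (0.800) nearest. Over the 12 root arrays OsCesA8 came first for both LOG (0.974) and LOGL1 (0.990), followed by OsETR3 (0.973) for LOG and CAT-A (0.989) for LOGL1.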

How the data were processed

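The authors deposited 1 table of processed signal intensities on a linear scale, 1 column an array, for 57381 probe sets. Per the file's values, the mean of each array with its lowest and highest 2% left out is 500.07 to 500.08, so the arrays were scaled to a common mean before deposit; the summarising software is not given in the sources used here. The 187 control probe sets were left out. Array medians were 68.2 to 86.7 in root and 47.6 to 57.0 in leaf, replicates correlated at 0.96 to 0.982, and the number of arrays limits the precision. No 2 arrays were duplicates.

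Gene names came from the platform annotation, updated through the RefSeq gene table of assembly ASM3414082v1. A single gene was named for 22436 probe sets, several for 95 and none for 34663. The annotation's 17905 genes were all found in the RefSeq table, whose coordinates were not used, since its build may differ from that of the array design. No sequence is shown.

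Log2(signal + 20) was fitted with lmFit and eBayes (trend = TRUE, two-sided) in limma 3.58.1 under R 4.3.3: within each organ over 12 arrays (34316 probe sets above the 40th percentile), and over all 24 arrays for differences between organs (38131 probe sets above it in at least 1 organ). The fit was tested on simulated data. Likeness was ranked by Pearson's r among named single genes, and every member is reported. Groups follow the titles; 1 protocol text names both times, and the title was followed there. Alternatives were pseudocounts of 5 and 80, no filter, quantile normalization, shifting arrays to the same median, the replicate number as a block and leaving out each array. A fit without the tZ 30 min and DMSO 120 min arrays was chosen after seeing the data. The members and the lists of other cytokinin genes and markers were chosen with earlier results of these data known.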

Additional observations from a re-analysis of the deposited data

Results flagged for a closer look

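Each result below was singled out because a test of a difference between 2 responses was passed; all are on the log2 scale, and all but the last group use at least 1 of the groups whose labels are in doubt. Between 30 and 120 min, the tZ minus DMSO difference of LOGL6 in root changed by 0.82 and that of LOG in leaf by 0.62. Between leaf and root at 30 min, it differed by -1.11 for LOG, 1.70 for LOGL1, -1.04 for LOGL10, -1.43 for LOGL3, -1.45 for LOGL7 and -0.44 for LOGL9. At 120 min it differed by -0.73 for LOG, 1.13 for LOGL1, -2.80 for LOGL3, -1.02 for LOGL7 and -1.13 for LOGL9.

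For tZ 120 min against DMSO 30 min the leaf and root differences were apart by -1.19 for LOG, 1.05 for LOGL1, -1.29 for LOGL3, -1.69 for LOGL7, -1.23 for the second LOGL7 probe set and -1.54 for LOGL9. Groups of 3 arrays are too small for the test for single outlying samples, so none was made.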

How the results depend on the processing

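Of 2162 differences of single genes recomputed under an alternative, 2068 kept their direction and their side of the threshold, 57 lost the call, 22 gained it and 15, none of them called, changed sign. Each alternative changed some of them; the cause was not tested. The sign changes without leaving out an array were LOGL9 in root, tZ 120 min against DMSO 30 min (0.029, quantile), LOGL7 in root, 120 against 30 min difference (0.021, same median), and in leaf against root LOGL6 at 30 min (-0.024, quantile) and LOGL10 at 120 min (0.026, pseudocount 5).

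The remaining sign changes came when 1 array was left out. The ranges were -0.23 to 0.014 for LOGL7 in root at 30 min, -0.090 to 0.17 for LOGL7 in root, tZ 120 min against DMSO 30 min, -0.14 to 0.0073 for LOGL10 in leaf between the DMSO times, and -0.13 to 0.066 for LOGL5 in leaf between the tZ times. In leaf against root they were -0.067 to 0.24 for LOGL6 at 30 min, and -0.29 to 0.14 for LOGL5 and -0.24 to 0.14 for LOGL10 at 120 min.

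Counts moved by over 1.5 times in the smaller comparisons. Between the DMSO times, 1203 to 1703 probe sets and 1 to 2 members were called in root with 1 array left out (2137 and 1 with all), and 2 members after quantile normalization. In leaf, 146 to 330 probe sets and 0 members were called with 1 array left out (481 and 1 with all), 315 probe sets with no filter, and 141 with 0 members after the shift to the same median. Between the tZ times in root, 1397 to 2136 probe sets and 3 to 7 members were called with 1 array left out (2312 and 5 with all). Without tZ 120 min replicate 2, LOGL3 (-0.84, adjusted p = 0.00204) and LOGL5 (-0.92, adjusted p = 0.00281) were called there. For the change of the root difference with time, 848 to 1819 probe sets and 0 to 3 members were called with 1 array left out (1578 and 1 with all), and 2 members with a pseudocount of 80, 0 with no filter and 2 after the shift. The same test in leaf called 800 probe sets after the shift (1316 without it). The shift also moved the share of calls that were higher between the times in root from 52.1% to 28.0% (DMSO) and from 54.2% to 69.6% (tZ), in leaf from 50.5% to 71.6% (DMSO), and for the change of the root difference from 56.5% to 83.4%. Across the groups, the range of levels of all 8 genes moved under the shift by more than the spread between replicates, and under quantile normalization by less.

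Replicate numbers did not pair the samples: deviations of same-numbered arrays correlated at -0.055 to 0.075 over 12 pairs of groups. With the number as a block, 299 probe sets and 0 members were called between the DMSO times in leaf, where LOGL7 lost its call (adjusted p = 0.0728), LOGL10 between the tZ times in root lost its call (adjusted p = 0.0543), LOGL3 gained one in root at 120 min (adjusted p = 0.0497) and in leaf between the tZ times (adjusted p = 0.0384), and no other member's call changed. In the fit without the doubtful groups, chosen after seeing the data, 5 members were called in root, 7 in leaf and 5 between organs for tZ 120 min against DMSO 30 min; LOGL10 in root lost its call (adjusted p = 0.0763).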
